A study of Mus musculus with 120 samples.

Results

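Amot, its relatives Amotl1 and Amotl2, the coactivator Yap1, the transcription factors Tead1, Tead2, Tead3 and Tead4, and the kinases Lats1 and Lats2 were followed by their RNA levels. They are 10 of 23154 genes in each of 2 count tables, 1 from mouse gastrula tissue and 1 from stem cells. These genes were picked by name as parts of the Hippo pathway with their levels in these libraries already known. Their levels and fold changes are therefore given as a description. They entered the fit over all genes, and how many passed is given once per comparison beside the share of all genes, with nothing read from it. Another 55 genes of the pathway were listed, of which 53 were tested in embryos and 52 in cells. Adjusted p-values are given for some of those named.

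In Hippo signalling a kinase cascade ends at LATS1 and LATS2, which phosphorylate the coactivator YAP and so keep it in the cytoplasm. Unphosphorylated YAP, or its relative TAZ, enters the nucleus and switches on genes together with TEAD transcription factors. Angiomotins bind both YAP and actin, hold YAP outside the nucleus and help to activate LATS. In the mouse blastocyst this pathway separates the trophectoderm, which needs Tead4, from the inner cells, where Amot is active, and Amot mutant mice have disturbed movements of the visceral endoderm. RNA alone was measured here, so the phosphorylation and the place of these proteins in the cell were not analysed.

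The embryos were of the outbred ICR stock and came from 6.5, 7.0 and 7.5 days post coitum (E6.5, E7.0, E7.5). Each was cut into the extra-embryonic part (ExE) and the embryonic part, and every group had 2 libraries, 18 in all. The embryonic part was kept whole at E6.5 (Epi), was parted into P and A at E7.0, and into AM, P and A at E7.5. The labels give these regions by letter. The cells were E14/TG2A mouse embryonic stem cells, with a region called Enh9E deleted by CRISPR-Cas9 (KO) or unedited (WT). They were taken as day 8 neural progenitors (D8) or as stem cells (D0), with 3 KO and 2 WT libraries on each day, 10 in all. What Enh9E controls, how many clones the KO libraries stand for, and how many embryos were pooled per library are left unsaid by the sources used here. Replicates of E7.0 and of the cells may thus be technical, and p-values measure the spread between these libraries. At E6.5 and E7.5 the 2 replicates differed in Y-linked RNA, as given below, and so did not come from the same embryos. Embryo sex and replicate number cannot be told apart at these 2 stages.

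Library totals ran from 5.145 to 17.14 M counts in embryos and from 5.962 to 13.18 M in cells. Levels are CPM, counts scaled to a common library total by TMM,, each table on its own, so levels are not compared between the tables. Gene lengths were not used, so levels are not compared between genes either. The dissections carried their markers: 10 extra-embryonic ectoderm genes summed to 440 to 870 CPM in the ExE libraries of the 3 stages and to 83.1 to 260 CPM in the embryonic ones. The sum of 10 visceral endoderm genes differed greatly between replicates at E7.5, at 638 and 6846 CPM in P and 17.7 and 612 CPM in A. The Y-linked gene Ddx3y was at 57.0 CPM or more in replicate 1 of E6.5 and E7.5 and at most 0.141 CPM in replicate 2, and all E7.0 libraries held at least 54.5 CPM of it. KO cells had at most 0.411 CPM of Ddx3y and WT cells at least 32.5 CPM. In KO minus WT the median log2 fold change of chromosome 14 was 0.47 at D0 and 0.50 at D8, that of chromosome 6 was 0.30 and 0.45, and that of chromosome 11 was 0.20 and 0.23. These 3 chromosomes were picked after their values were seen. Differences between KO and WT cells therefore cannot be told apart from other differences between the lines.

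The members lie on several chromosomes of GRCm38. Amot spans chrX:145446424-145505966, Tead4 spans chr6:128227143-128300813, and Tead3 spans chr17:28331671-28350805. Amotl1, Amotl2 and Yap1 are all on chromosome 9, and Tead1 and Tead2 on chromosome 7. RefSeq promoter windows of GRCm38.p6, 250 bases before to 50 after a start site, were matched for 8 of the 10 genes, Tead1 and Tead4 having no entry. The 6 bases GGAATG or, on the other strand, CATTCC, which are the core of the site that TEAD factors bind, were searched in them to see which members carry it. They stood in 5 of 11 windows, in those of Amotl2, Yap1, Lats2 and Tead3, against 14.7% of 32851 windows of all genes. By gene this was 4 of 8, against 16.6% of 27025 genes. The match is a description of the letters and was not tied to any level here.
The Amot window is given whole because the core does not stand in it (chrX:145487590-145487889, minus strand, inside the annotated span of the gene), and 60 bases around the core are given for the others, with the core in capitals.
Amot: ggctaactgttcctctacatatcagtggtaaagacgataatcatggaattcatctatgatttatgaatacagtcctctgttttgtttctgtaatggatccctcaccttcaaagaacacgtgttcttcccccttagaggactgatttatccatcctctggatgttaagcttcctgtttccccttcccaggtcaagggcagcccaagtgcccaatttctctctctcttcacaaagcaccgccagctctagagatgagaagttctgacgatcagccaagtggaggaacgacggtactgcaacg
Amotl2: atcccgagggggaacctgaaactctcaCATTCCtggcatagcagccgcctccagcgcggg
Yap1: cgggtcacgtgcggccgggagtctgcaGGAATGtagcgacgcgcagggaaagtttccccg
Lats2: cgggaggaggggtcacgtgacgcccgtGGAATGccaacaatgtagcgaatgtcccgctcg
Tead3: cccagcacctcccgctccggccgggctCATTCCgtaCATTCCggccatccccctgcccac
In Amotl2 (window chr9:102717554-102717853, plus strand, also inside the annotated span) the core began 65 bases before the start site. In Yap1 (chr9:8004547-8004846, minus strand) it began 141 bases before. In the Lats2 window (chr14:57746074-57746373, minus strand) it began 5 bases after the start, and a second Lats2 window had none. The Tead3 window shown (chr17:28350551-28350850, minus strand) held it at 123 and 114 bases before the start and 3 bases after, and another Tead3 window at 182 bases before.

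Amot, the angiomotin that gave the family its name, differed widely between embryonic regions and stages. At E6.5 it stood at 543 and 371 CPM in ExE, against 299 and 399 CPM in Epi, so the groups overlapped. At E7.0 it stood at 363 and 249 CPM in ExE, 203 and 186 CPM in P, and 489 and 428 CPM in A. Region A was thus above P in every library at E7.0. At E7.5 it stood at 395 and 253 CPM in ExE, 195 and 225 CPM in AM, 95.2 and 120 CPM in P, and 17.1 and 32.0 CPM in A. At that stage the order was turned round, with both A libraries below every other library of the embryo table. In bulk tissue, fewer cells with the RNA and less RNA per cell cannot be told apart.

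The fitted log2 fold changes of Amot followed from these levels. For P minus A it was -1.23 ± 0.35 (SE) at E7.0 and 2.13 ± 0.36 at E7.5, a difference of 3.37 ± 0.50 between the stages. For AM minus A at E7.5 it was 3.10 ± 0.38. Within region A, E7.5 minus E7.0 gave -4.22 ± 0.40, while within P it gave -0.86 ± 0.35. In ExE the level moved little by comparison, with E7.5 minus E6.5 at -0.50 ± 0.35 and overlapping libraries. Leaving out any 1 library of the compared groups kept P minus A at E7.5 between 1.69 and 2.60, and AM minus A between 2.67 and 3.58. These contrasts between stages within a region were added after the levels were seen.

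Ordered by group mean, Amot ran from A at E7.0 (458 ± 43.3 CPM, SD, n = 2) and ExE at E6.5 (457 ± 122) over Epi at E6.5 (349 ± 70.5), ExE at E7.5 (324 ± 101) and ExE at E7.0 (306 ± 80.5) to AM at E7.5 (210.2 ± 21.2), P at E7.0 (195 ± 12.1), P at E7.5 (108 ± 17.8) and A at E7.5 (24.6 ± 10.5). Neighbours in this order overlapped one another down to ExE at E7.0. AM at E7.5 lay below all ExE libraries and overlapped P at E7.0, and P at E7.5 and A at E7.5 each stood clear of the group above.

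Other measures also differed between regions at E7.5, while the visceral endoderm sums of P and A overlapped at E7.0. The visceral endoderm genes summed to 1463 and 7585 CPM in AM, 638 and 6846 CPM in P and 17.7 and 612 CPM in A at E7.5, with none of the 10 at 0 in any of these groups. In the same libraries Amot stood at 195 and 225 CPM in AM, 95.2 and 120 CPM in P and 17.1 and 32.0 CPM in A. At E7.0 the sum was 1706 and 3688 CPM in P and 1566 and 3397 CPM in A. Amot then stood at 203 and 186 CPM in P and 489 and 428 CPM in A. In ExE at E7.5 the sum ran from 14635 to 17998 CPM. Amot is X-linked, and embryo sex differed between libraries. At E7.5 replicate 1 libraries had Y-linked transcripts and replicate 2 libraries had almost none, while all E7.0 libraries had them. The part of embryo sex in the Amot levels was not tested. Markers of other cell types also differed between regions at E7.5. The 8 epiblast genes summed to 311 and 567 CPM in AM, 695 and 1592 CPM in P and 1642 and 2826 CPM in A. The 8 genes of primitive streak and mesoderm summed to 178 CPM in both AM libraries, 588 and 818 CPM in P and 25.9 and 82.4 CPM in A, with Msgn1 at 0 in A. The 8 neural genes summed to 10.8 and 15.8 CPM in AM, 45.7 and 31.7 CPM in P and 52.7 and 62.1 CPM in A. The 7 genes of definitive endoderm and axial mesoderm summed to 328 and 165 CPM in AM, 70.9 and 60.5 CPM in P and 8.46 and 54.4 CPM in A. The part of tissue makeup in the Amot levels was not tested.

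**Figure D1:**
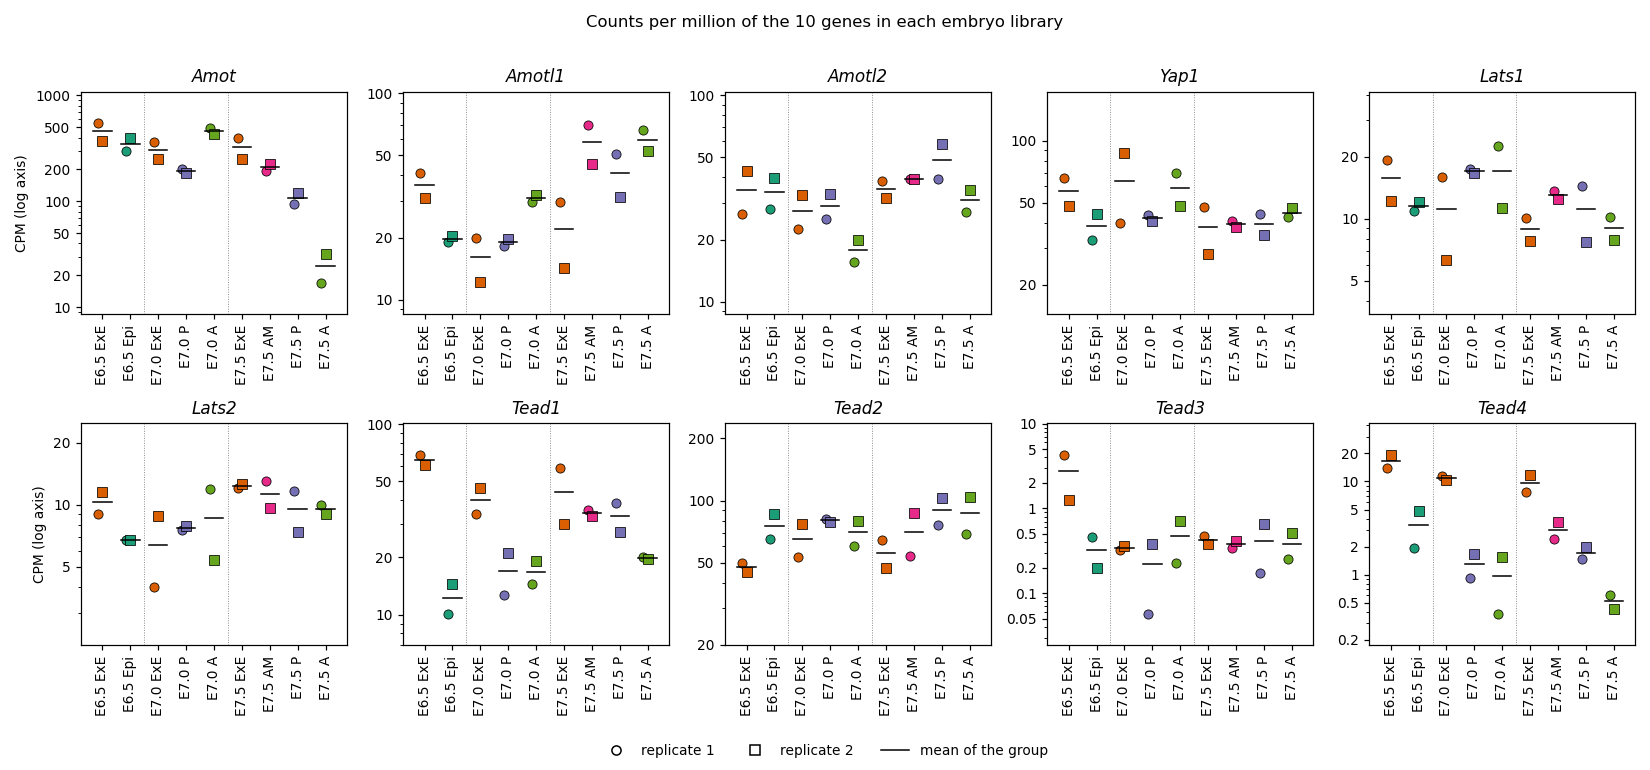
CPM (log axis) of the 10 genes in each of the 18 embryo libraries, with replicate 1 as circles, replicate 2 as squares, the group mean as a line and stages parted by dotted lines. Amot stands at 17.1 and 32.0 CPM in A at E7.5, against 489 and 428 CPM in A at E7.0, and Tead4 is highest in ExE at every stage.

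Amotl1, an angiomotin that also binds YAP, had A above P at E7.0, as Amot did, but not the order of Amot at E7.5. At E7.0 it stood at 18.3 and 19.7 CPM in P and 29.8 and 32.2 CPM in A. P minus A was -0.71 ± 0.39 at E7.0 and -0.53 ± 0.38 at E7.5, with no overlap at either stage. At E7.5 it stood at 29.8 and 14.2 CPM in ExE, 70.6 and 45.4 CPM in AM, 50.8 and 31.4 CPM in P, and 66.1 and 52.5 CPM in A. ExE was below all embryonic libraries, with a log2 fold change of -1.24 ± 0.34 against their mean. Without ExE replicate 1 this was -1.99, and without ExE replicate 2 it was -0.83. At E6.5 the order was the other way, with 41.0 and 31.0 CPM in ExE and 19.1 and 20.3 CPM in Epi (0.87 ± 0.39). Region A held 66.1 and 52.5 CPM at E7.5 against 29.8 and 32.2 CPM at E7.0 (0.94 ± 0.38), where Amot went the other way.

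Amotl2, the third angiomotin, which in several cell types is itself a target of YAP, varied less. It ranged from 15.6 CPM in an A library at E7.0 to 58.0 CPM in a P library at E7.5. P stood above A at E7.0 (25.1 and 33.3 CPM in P, 15.6 and 19.8 CPM in A) and at E7.5 (39.2 and 58.0 CPM in P, 27.2 and 34.7 CPM in A). The fold changes were 0.72 ± 0.35 and 0.65 ± 0.34 on the log2 scale. ExE and the embryonic part overlapped at all 3 stages.

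Yap1 stood between 28.4 and 87.5 CPM over the 18 embryo libraries, both extremes being ExE libraries. None of its fold changes between ExE and the embryonic part exceeded 0.56 ± 0.37, the value at E6.5. Lats1 stood between 6.30 and 22.6 CPM and Lats2 between 3.99 and 13.0 CPM. Both kinases and Yap1 had their ExE libraries above the Epi ones at E6.5. For Lats1, ExE minus the embryonic part was 0.45 ± 0.47, -0.59 ± 0.42 and -0.29 ± 0.39 at E6.5, E7.0 and E7.5. For Lats2 it was 0.61 ± 0.48, -0.39 ± 0.42 and 0.29 ± 0.37. At E7.0 and E7.5 the ExE libraries of both kinases overlapped the embryonic ones.

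Among the TEAD factors, Tead4, which trophectoderm needs, was higher in ExE at every stage. It stood at 13.9 and 19.5 CPM in ExE and 1.94 and 4.86 CPM in Epi at E6.5. At E7.0 it stood at 11.4 and 10.4 CPM in ExE, 0.920 and 1.65 CPM in P, and 0.381 and 1.56 CPM in A. At E7.5 it stood at 7.63 and 11.6 CPM in ExE, 2.40 and 3.65 CPM in AM, 1.47 and 1.97 CPM in P, and 0.608 and 0.427 CPM in A. Every ExE library lay above every embryonic library of its stage. The log2 fold changes were 2.28 ± 0.62, 3.35 ± 0.53 and 2.77 ± 0.46 at the 3 stages in order. The summed extra-embryonic ectoderm markers were high in the same libraries. At E7.5 they came to 83.1 to 131 CPM in AM, 87.0 to 141 CPM in P and 103 to 108 CPM in A. The visceral endoderm sums were also higher in ExE at each stage. At E6.5 they ran from 6301 to 8626 CPM in ExE and from 3500 to 5965 CPM in Epi. The 8 blood and vessel genes summed to 119 to 169 CPM in ExE at E7.5, and to at most 53.5 CPM in AM. The part of tissue makeup in the Tead4 levels was not tested.

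Tead1 was also higher in ExE at the earlier stages. It stood at 69.2 and 60.9 CPM in ExE and 10.2 and 14.5 CPM in Epi at E6.5, and the fold change was 2.40 ± 0.39. At E7.0 it stood at 33.8 and 46.3 CPM in ExE, 12.7 and 21.2 CPM in P, and 14.5 and 19.1 CPM in A (1.25 ± 0.31). At E7.5 the ExE libraries held 58.5 and 30.0 CPM and overlapped AM and P (0.65 ± 0.29, or -0.03 without ExE replicate 1). Tead2, a TEAD factor present from early stages of mouse development, stood lower in ExE at E6.5, at 49.6 and 45.3 CPM against 65.2 and 86.2 CPM in Epi (-0.67 ± 0.33), and overlapped at the later stages. Tead3 was near the limit of detection, with at most 6 counts in 16 of the 18 libraries. The other 2 were ExE at E6.5, with 48 and 9 counts, or 4.32 and 1.27 CPM, against 0.457 and 0.198 CPM in Epi.

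**Figure D2:**
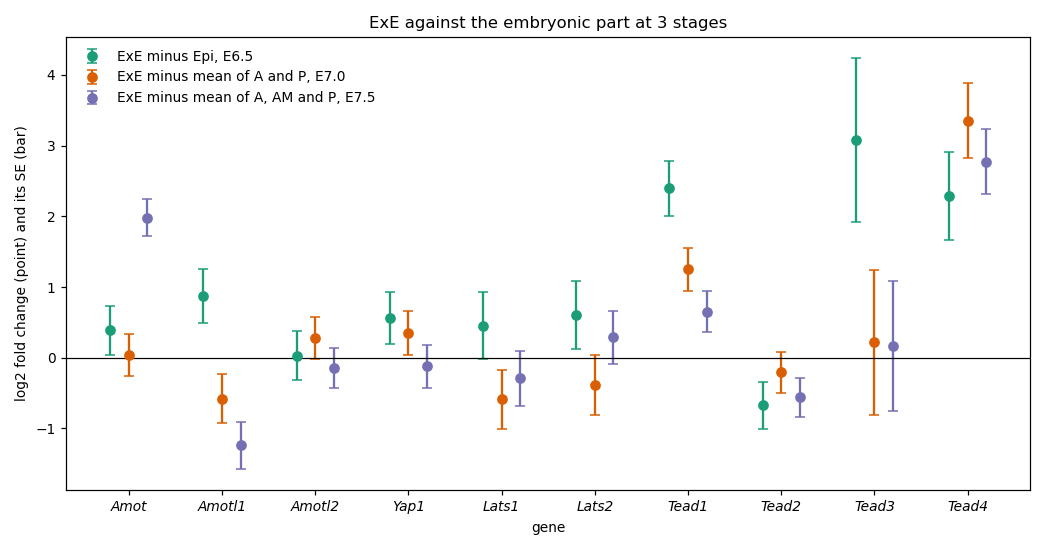
Log2 fold change (points) and SE (bars) of ExE minus the embryonic part for the 10 genes at E6.5, E7.0 and E7.5. Tead4 lies at 2.28, 3.35 and 2.77, Tead1 goes down from 2.40 over 1.25 to 0.65 with stage, and Amotl1 changes sign, at 0.87 at E6.5 and -1.24 at E7.5.

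At an adjusted p under 0.05 in edgeR, 2 of the 10 members passed for ExE at E6.5 (Tead1, Tead4), where 8.93% of all 14403 genes tested did, 3.69% being higher and 5.24% lower. At E7.0 it was 2 (Tead1, Tead4), beside 18.2% of all genes (10.0% higher, 8.14% lower). At E7.5 it was 3 (Amot and Tead4 higher, Amotl1 lower), beside 21.3% (13.4% higher, 7.91% lower). For P minus A it was 0 at E7.0, beside 0.00694% or 1 gene, which was higher. It was 1 at E7.5 (Amot, higher), beside 0.236% (0.201% higher, 0.0347% lower). For AM minus A it was 1 (Amot, higher), beside 1.57% (1.15% higher, 0.417% lower). Because these levels were known when the genes were chosen, nothing is read from these counts.

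The other pathway genes were tested one by one, their lists also having been drawn up with earlier results known. Of 55, 53 were measured well enough to be tested in embryos, all but Vgll2 and Ankrd1. ExE held more RNA of the YAP partner Wwtr1 (TAZ) at every stage, at 48.0 and 49.5 CPM in ExE and 10.4 and 14.4 CPM in Epi at E6.5. It rose in ExE by 1.98 ± 0.52 on the log2 scale at E6.5 (edgeR, adjusted p = 0.0245), 2.50 ± 0.42 at E7.0 (adjusted p = 0.000782) and 1.34 ± 0.38 at E7.5 (adjusted p = 0.02). At E7.0 its ExE libraries differed, at 30.0 and 105 CPM. Vgll1, a cofactor that binds TEAD, had 37 and 16 counts in ExE and 1 and 0 in Epi at E6.5, 150 and 0 in ExE at E7.0, and 9 and 77 in ExE at E7.5, with no count in A, AM or P. Against a floor of 3 counts over the embryonic group it was at least 62.1-fold higher in ExE at E7.0 (adjusted p = 0.014) and at least 107-fold at E7.5 (adjusted p = 0.00466). Without ExE replicate 1 no count of it was left at E7.0, without ExE replicate 2 the E7.5 call was lost, and DESeq2 made neither call.

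Of 15 genes of the Hippo core list, which holds the kinase cascade, edgeR called 0 in ExE at E6.5, 1 at E7.0 and 3 at E7.5, or 0.00, 6.67 and 20.0%, beside 8.93, 18.2 and 21.3% of all genes. At E6.5 the median log2 fold change of the list was 0.13, beside 0.03 over all genes. Sav1, the scaffold of the MST kinases, rose at E7.0 by 1.83 ± 0.46 (adjusted p = 0.0122) and at E7.5 by 1.39 ± 0.42 (adjusted p = 0.0276). The MST kinase Stk3 stood at 0.13 ± 0.39, 0.65 ± 0.33 and -0.20 ± 0.32 over the stages, and Stk4 at 0.09 ± 0.33, 0.17 ± 0.29 and 0.16 ± 0.27. At E7.5 Wwc2, a KIBRA family scaffold, rose by 0.91 ± 0.31 and Stk38, a kinase related to LATS, fell by 0.83 ± 0.23 on the log2 scale (adjusted p = 0.0172).

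Among 15 junction and polarity genes, 2 fell in ExE at E6.5, where 5.24% of all genes fell. Ajuba, a LIM protein that inhibits LATS, stood at 18.8 and 29.6 CPM in ExE and 79.2 and 92.4 CPM in Epi. It fell by 1.83 ± 0.36 on the log2 scale (adjusted p = 0.00434), and by 1.32 ± 0.33 at E7.0 (adjusted p = 0.0107). Fat1, a large cadherin, fell at E6.5 by 1.17 ± 0.34 (adjusted p = 0.0401) and at E7.5 by 1.22 ± 0.30 (adjusted p = 0.00773). Nedd4, a ubiquitin ligase, fell at E7.0 by 0.99 ± 0.29 and at E7.5 by 1.25 ± 0.28. Wtip, a relative of Ajuba, rose at E7.5 by 1.11 ± 0.36.

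Of 19 genes tested that are known from human cell lines to follow YAP and TEAD, 2 passed in ExE at each stage, or 10.5%, beside 8.93, 18.2 and 21.3% of all genes at E6.5, E7.0 and E7.5. Of them, 2 rose and none fell at E6.5 (median 0.17), 1 rose and 1 fell at E7.0 (median 0.39), and 2 rose at E7.5 (median -0.13). The medians over all genes were 0.03, -0.04 and -0.02. Crim1, which codes for a membrane protein that binds BMPs, rose by 3.54 ± 0.84 at E6.5 (adjusted p = 0.0133) and 1.76 ± 0.57 at E7.5. Dock5 rose by 1.39 ± 0.37 at E6.5 and 1.41 ± 0.31 at E7.0 (adjusted p = 0.00517), and Fjx1 rose by 1.25 ± 0.37 at E7.5. Ccdc80 had no count in ExE at E7.0, against 4 to 16 per library in P and A, and so was at least 7.00-fold lower in ExE (adjusted p = 0.00825). The widely used YAP targets Cyr61 and Ctgf did not pass at any stage, with Cyr61 at 1.20 ± 0.47, 0.97 ± 0.39 and 0.18 ± 0.37 and Ctgf at -0.55 ± 0.97, -1.17 ± 0.89 and -1.11 ± 0.81.

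These counts depended on single libraries. In all, 5, 8 and 10 of 53 pathway genes passed at E6.5, E7.0 and E7.5, of which 3, 5 and 7 rose. These are 9.43, 15.1 and 18.9% of the lists, close to the 8.93, 18.2 and 21.3% of all genes. At E6.5 the count was 0 without ExE replicate 1 and 1 without any other library of that stage, and Wwtr1, Crim1, Dock5 and Fat1 passed in none of these fits. At E7.0 it was 3 without ExE replicate 2, with the calls of Wwtr1, Sav1, Ajuba and Nedd4 among those lost, and 12 without ExE replicate 1. At E7.5 it was 1 without ExE replicate 2, 6 without ExE replicate 1, 5 without A replicate 1, AM replicate 1 or P replicate 1, and 6 without AM replicate 2. Sav1, Wwc2, Wtip and Crim1 each passed at E7.5 in 1 of 8 such fits, Fjx1 in 3 and Wwtr1 in 4, and Stk38, Fat1 and Nedd4 in 7. With total counts in place of TMM, 1 rose and 3 fell at E7.5.

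Between the embryonic regions no other pathway gene passed in edgeR with the filter on low counts and no replicate block. With the block 1 passed, for P minus A at E7.5. Without the filter 1 passed for P minus A at E7.5 and 1 for AM minus A. For P minus A at E7.0, 1 of 53 had an unadjusted p under 0.05 and DESeq2 called none. For P minus A at E7.5 it was 2 and DESeq2 called 1, and for AM minus A it was 6 and DESeq2 called 1. The 19 target genes tested had a median of 0.63 in P minus A at E7.5 and 0.60 in AM minus A, beside 0.02 over all genes for both. With total counts in place of TMM the median of all genes was -0.43 for P minus A at E7.5. Genes of 1 list in the same libraries are not replicates, so nothing is read from the list medians. Cyr61 stood at 40.1 and 17.0 CPM in AM, 19.5 and 16.8 CPM in P and 8.61 and 8.88 CPM in A. Its fold change was 1.71 ± 0.47 for AM minus A (adjusted p = 0.0841) and 1.05 ± 0.47 for P minus A (adjusted p = 0.596). Igfbp3, which codes for a binding protein of insulin-like growth factors and is named here after its values were seen, stood at 19.7 and 29.8 CPM in P and 2.08 and 3.16 CPM in A (3.24 ± 0.70, adjusted p = 0.07).

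In the stem cells, all angiomotins were present and Amot was the one with the largest difference over neural differentiation. It stood at 63.3, 21.4 and 47.9 CPM in KO cells at D8 and 3.42, 6.63 and 7.27 CPM at D0. In WT cells it stood at 75.2 and 40.2 CPM at D8 and 9.63 and 5.06 CPM at D0. D8 libraries lay above D0 libraries in both genotypes, and KO overlapped WT on both days. The fold change of D8 minus D0 was 2.90 ± 0.44 on the log2 scale in KO cells and 2.96 ± 0.53 in WT cells. KO minus WT was -0.38 ± 0.43 at D8 and -0.33 ± 0.51 at D0.

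Amotl1 and Amotl2 went in opposite directions between the days. Amotl1 stood at 69.1, 57.2 and 61.4 CPM in KO and 84.3 and 85.9 CPM in WT at D8. At D0 it stood at 39.2, 35.1 and 30.1 CPM in KO and 33.5 and 36.3 CPM in WT. Amotl1 was thus higher in every D8 library than in any D0 library. Amotl2 stood at 62.9, 47.1 and 57.5 CPM in KO and 65.2 and 90.6 CPM in WT at D8. At D0 it stood at 133, 159 and 169 CPM in KO and 148 and 132 CPM in WT. Amotl2 was lower in every D8 library than in any D0 library. For Amotl1, D8 minus D0 was 0.85 ± 0.14 in KO and 1.29 ± 0.17 in WT, and for Amotl2 it was -1.46 ± 0.17 in KO and -0.84 ± 0.20 in WT. Without WT D8 replicate 1 the WT value of Amotl2 was -0.52. At D8 the KO libraries of both genes lay below the WT ones, by -0.44 ± 0.15 and -0.48 ± 0.18 on the log2 scale.

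The TEAD factors differed in direction between neural progenitors and stem cells. Tead4 stood at 10.1, 5.14 and 10.6 CPM in KO and 3.84 and 2.89 CPM in WT at D8, and at 73.1, 54.8 and 73.9 CPM in KO and 55.1 and 49.5 CPM in WT at D0. All D8 libraries lay below all D0 libraries, and KO lay above WT at D8. D8 minus D0 was -2.96 ± 0.25 in KO and -3.97 ± 0.35 in WT. Tead1, at 65.1 to 92.1 CPM in the 5 D8 libraries and 155 to 183 CPM in the 5 D0 libraries, was also lower at D8 (-1.04 ± 0.15 in KO, -1.14 ± 0.18 in WT). Tead2 was higher at D8, at 234, 275 and 257 CPM in KO and 275 and 347 CPM in WT, against 59.9, 74.2 and 78.8 CPM in KO and 78.5 and 88.5 CPM in WT at D0. Its D8 minus D0 was 1.84 ± 0.15 in KO and 1.90 ± 0.18 in WT.

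Tead3 and Tead4 were the members in which the genotypes differed most at D8. Tead3 stood at 29.6, 13.9 and 17.2 CPM in KO and 42.3 and 46.2 CPM in WT at D8, and at 9.07, 10.7 and 10.5 CPM in KO and 6.30 and 6.22 CPM in WT at D0. KO was thus below WT at D8 (-1.13 ± 0.27) and above it at D0 (0.69 ± 0.31), with no overlap on either day. D8 minus D0 was 0.99 ± 0.26 in KO, or 0.61 without KO D8 replicate 1, and 2.82 ± 0.33 in WT. For Tead4, KO minus WT was 1.37 ± 0.33 at D8 and 0.36 ± 0.26 at D0. Tead4 lies on chromosome 6, whose genes had a median of 0.45 in KO minus WT at D8, and Tead3 on chromosome 17, with a median of -0.07. The part of the chromosome shift in these values was not tested.

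Yap1 stood at 147, 126 and 149 CPM in KO and 115 and 154 CPM in WT at D8, and at 184, 194 and 189 CPM in KO and 212 and 190.1 CPM in WT at D0. The D8 libraries were all below the D0 ones. D8 minus D0 was -0.43 ± 0.14 in KO and -0.58 ± 0.17 in WT, the WT value being -0.29 without WT D8 replicate 1 and -0.28 with total counts in place of TMM. Lats1 stood at 32.8, 30.4 and 36.1 CPM in KO and 48.3 and 48.7 CPM in WT at D8. It stood at 22.6, 23.4 and 27.6 CPM in KO and 23.2 and 27.8 CPM in WT at D0. At D8 its KO libraries lay below the WT ones (-0.55 ± 0.16). Lats2, at 9.11 to 18.8 CPM over the 10 libraries, had a D8 minus D0 of -0.00 ± 0.22 in KO and 0.16 ± 0.27 in WT. Its KO minus WT was 0.50 ± 0.25 at D0, with no overlap, and 0.33 ± 0.25 at D8, with overlap. Lats2 lies on chromosome 14, whose genes had a median of 0.47 at D0 and 0.50 at D8 in KO minus WT. The part of the chromosome shift in the Lats2 values was not tested.

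**Figure D3:**
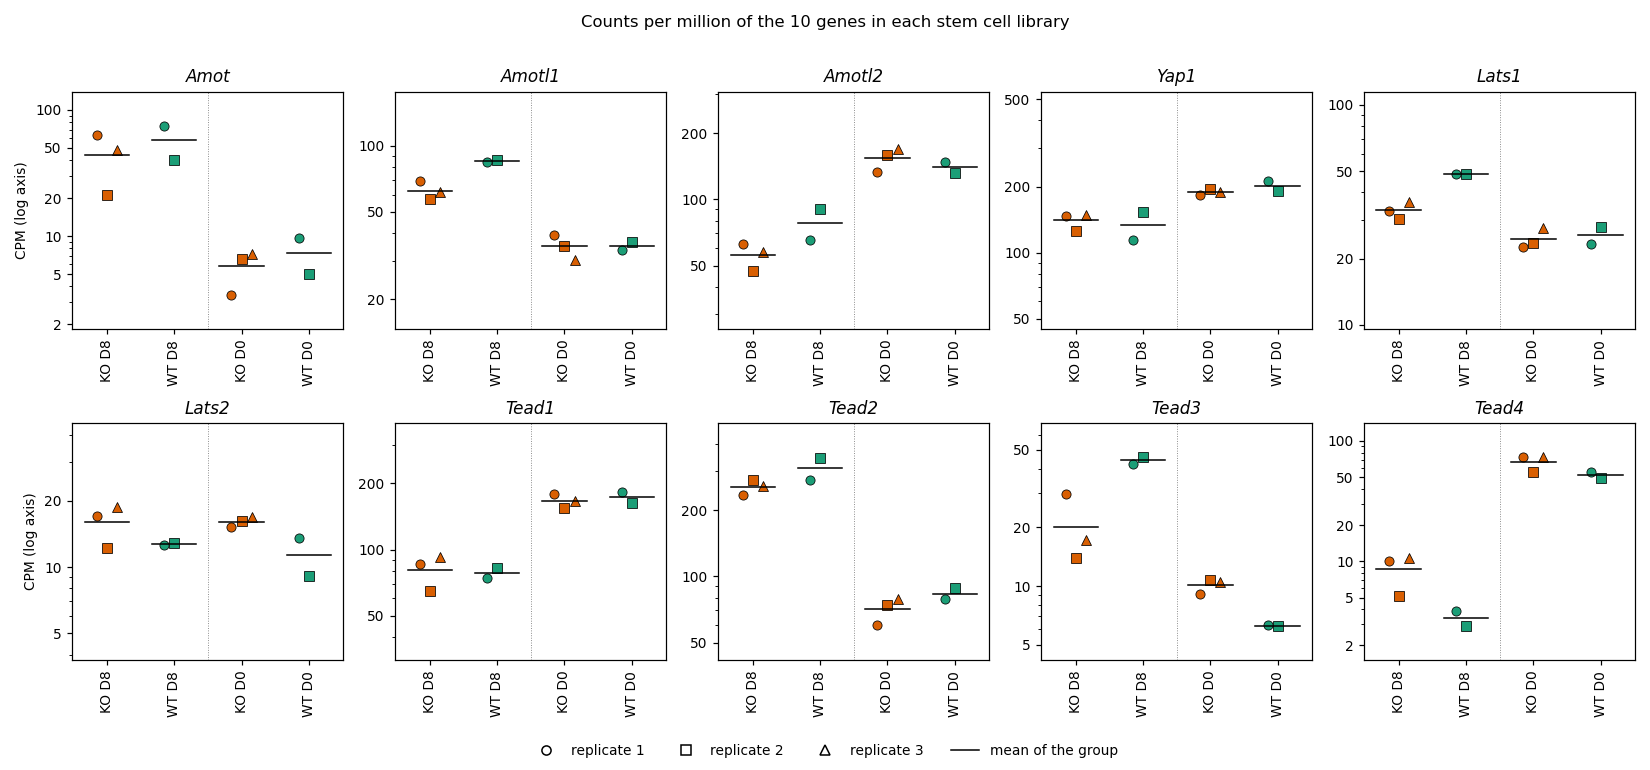
CPM (log axis) of the 10 genes in each of the 10 cell libraries, with KO in orange and WT in green, replicates as circles, squares and triangles, and the group mean as a line. Amot, Amotl1, Tead2 and Tead3 lie higher at D8 than at D0 in both genotypes, Amotl2, Tead1, Tead4 and Yap1 lie lower, and Tead3 is lower in KO at D8 (13.9 to 29.6 CPM) than in WT (42.3 to 46.2 CPM).

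For D8 minus D0, 9 of the 10 members passed in KO cells, 5 higher and 4 lower, where 64.5% of all 14629 genes tested did (33.4% higher, 31.1% lower). In WT cells it was also 9, 5 higher and 4 lower, beside 57.2% (27.9% higher, 29.3% lower). For KO minus WT it was 0 at D0, beside 0.273% (0.185% higher, 0.0889% lower), and 3 at D8 (Tead4 higher, Lats1 and Tead3 lower), beside 20.8% (12.5% higher, 8.24% lower). For the difference between the genotypes in D8 minus D0 it was 1 (Tead3, lower, -1.83 ± 0.41), beside 5.76% (2.76% lower). Nothing is read from these counts either. The labels of the days held: 7 stem cell genes summed to 135 to 181 CPM in KO and 42.1 to 76.5 CPM in WT at D8, and to 4658 to 4930 CPM in KO and 4503 to 4911 CPM in WT at D0.

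Over differentiation, the pathway genes outside the members changed in both directions. In KO cells 17 of 52 tested rose at D8 and 22 fell, or 75.0% in all beside 64.5% of all genes. In WT cells 14 rose and 13 fell, or 51.9% beside 57.2%. Of 15 Hippo core genes, 0 rose and 10 fell in KO, where 33.4% of all genes rose and 31.1% fell. In WT 1 rose and 4 fell, where 27.9% of all genes rose and 29.3% fell. Frmd6, a FERM domain scaffold upstream of the kinases, fell by 2.16 ± 0.17 on the log2 scale in KO (adjusted p = 1.35e-06) and 1.94 ± 0.21 in WT (adjusted p = 1.81e-05). Wwc2 fell by 1.83 ± 0.30 in WT (adjusted p = 0.000317) and about as far in KO (adjusted p = 6.47e-05). Wwtr1 fell by 0.93 ± 0.17 in KO (adjusted p = 0.000646), while in WT it stood at -0.35 ± 0.21 and did not pass, and the difference between them, -0.57 ± 0.27, did not pass either (adjusted p = 0.203).

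The 15 junction and polarity genes went both ways. In KO 6 rose and 6 fell, where 33.4% of all genes rose and 31.1% fell. In WT 5 rose and 4 fell, where 27.9% of all genes rose and 29.3% fell. Some of those that rose went up steeply in both genotypes. Crb2, a Crumbs protein of the apical membrane, rose at D8 by 5.21 ± 0.32 in KO (adjusted p = 2.64e-07) and 5.39 ± 0.39 in WT (adjusted p = 1.2e-06). Fat4, an atypical cadherin, had 1 count in the KO and 2 in the WT libraries at D0, and stood at 15.9, 12.1 and 28.7 CPM in KO and 45.5 and 69.7 CPM in WT at D8. Its ligand Dchs1 stood at 8.45, 14.1 and 15.3 CPM in KO and 47.6 and 60.5 CPM in WT at D8, and at 1.04, 1.83 and 1.26 CPM in KO and 0.494 and 0.868 CPM in WT at D0.

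Target genes from human cell lines moved both ways. In KO cells 11 of 19 rose and 4 fell over differentiation, or 78.9% beside 64.5% of all genes, and their median was 1.53 beside 0.05. In WT cells 7 rose and 4 fell, or 57.9% beside 57.2% of all genes, and their median was -0.13 beside -0.05. Myof, a membrane repair protein, fell by 4.30 ± 0.15 in KO (adjusted p = 1.58e-08) and 4.94 ± 0.20 in WT (adjusted p = 6.25e-08). F3, the gene for tissue factor, rose by 3.73 ± 0.27 in KO (adjusted p = 8.24e-07) and by 1.58 ± 0.36 in WT (adjusted p = 0.00313). Axl, a receptor tyrosine kinase, rose by 3.34 ± 0.39 in KO and 3.81 ± 0.46 in WT, and Nuak2 by 1.70 ± 0.24 and 3.17 ± 0.31.

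Between the genotypes, no pathway gene passed at D0 in edgeR, though 9 of 52 had an unadjusted p under 0.05 and DESeq2 called 1. At D8, 9 were higher in KO and 10 lower, or 19 of 52, beside 20.8% of all genes. The target list stood at 8 higher and 3 lower of 19 with a median of 1.04, against 0.02 over all genes, while the Hippo core had 1 higher and 3 lower of 15 (median -0.16) and the junction list 0 higher and 3 lower of 15 (median -0.44).

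F3 stood at 77.0, 119 and 153 CPM in KO and 12.3 and 14.5 CPM in WT at D8, higher by 3.12 ± 0.31 (adjusted p = 0.00087). Igfbp3 stood at 22.0, 44.8 and 32.3 CPM in KO and 6.65 and 8.90 CPM in WT (2.08 ± 0.36, adjusted p = 0.00366), and Myof at 13.6, 10.8 and 13.0 CPM in KO and 6.21 and 5.04 CPM in WT (1.16 ± 0.18, adjusted p = 0.00273). Their KO libraries all lay above the WT ones. The other called targets are named after their values were seen. Ctgf was higher by 1.60 ± 0.32 (adjusted p = 0.00738), at 25.5, 20.5 and 21.5 CPM in KO and 4.43 and 10.1 CPM in WT. Cyr61 was higher by 1.57 ± 0.47 (adjusted p = 0.0387), at 31.0, 62.0 and 73.1 CPM in KO and 8.57 and 28.2 CPM in WT. Crim1 and Dock5 were higher, by 1.58 ± 0.33 and 1.04 ± 0.22, and Nt5e had 5, 89 and 79 counts in KO and 0 and 2 in WT. Axl, Arhgef17 and Fjx1 were lower, by -1.17 ± 0.34, -0.90 ± 0.25 and -1.01 ± 0.22.

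Dchs1 and Fat4 were lower in KO at D8, by -2.10 ± 0.27 (adjusted p = 0.00147) and -1.61 ± 0.36 (adjusted p = 0.0117). Taok2, a kinase upstream of the MST kinases, was lower by -0.58 ± 0.14 and Vgll4, which competes with YAP for TEAD, by -1.03 ± 0.33 (adjusted p = 0.0471, lost with a replicate block). Stk38l was the only core gene called higher (0.54 ± 0.17, adjusted p = 0.041), a call lost under DESeq2, both other scalings, no filter and the replicate block. The call of Fat4 was lost without WT D8 replicate 2 and that of Igfbp3 without WT D8 replicate 1. Vgll4 and Stk38l each passed in 1 of 5 fits that left out 1 library, Nedd4 (-0.66 ± 0.20) and Stk38 (-0.56 ± 0.17) in 2, and Taok2 in 3. The difference between genotypes in D8 minus D0 passed for 4 pathway genes, Dchs1 (-3.13 ± 0.57, adjusted p = 0.019), Nuak2 (-1.47 ± 0.38, adjusted p = 0.0484, lost with a replicate block), F3 (2.15 ± 0.45, adjusted p = 0.0271) and Igfbp3 (2.10 ± 0.48, adjusted p = 0.0334). Dchs1 passed in 7 of the 10 fits that left out 1 library, F3 and Igfbp3 in 3 and Nuak2 in 2. Of the 19 calls at D8, 4 lie on the shifted chromosomes 6, 11 and 14, namely Stk38l, Vgll4, Dock5 and Igfbp3. Of the 3039 calls among all genes, 226 lie on chromosome 6, 306 on chromosome 11 and 171 on chromosome 14. Cyr61 and Ctgf were not matched to a chromosome, and nothing is read from these counts.

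**Figure D4:**
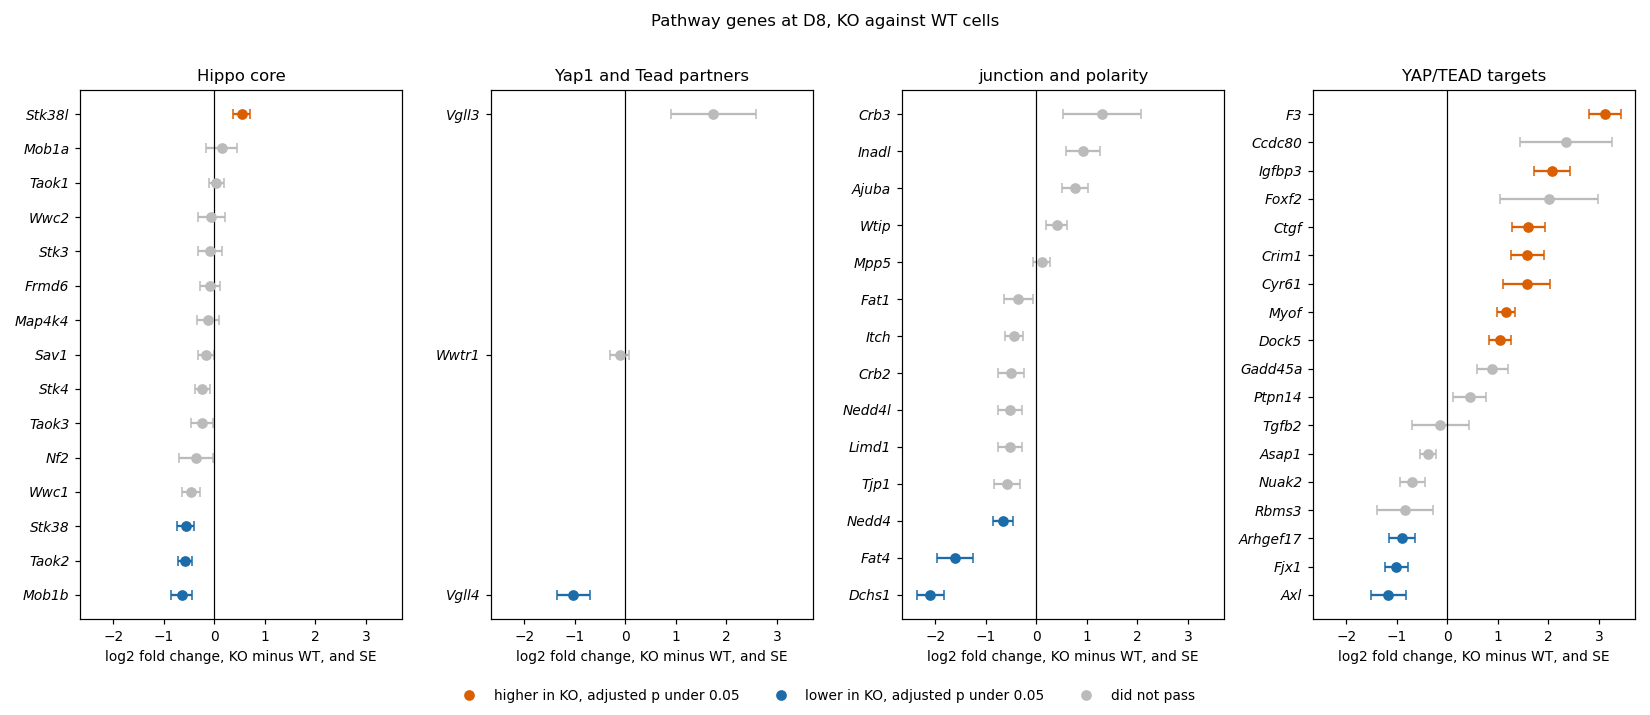
Log2 fold change (points) and SE (bars) of KO minus WT at D8 for the tested genes of the 4 pathway lists, coloured by edgeR call, with genes ordered by value within each list. Nt5e, with 2 counts in WT, and 1 gene not reported here are left out, and F3 at 3.12 and Dchs1 at -2.10 are the outermost called genes shown.

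The D8 cultures also differed in summed RNA of cell type markers. In bulk cultures, fewer cells of a type and less RNA per cell cannot be told apart. Summed over 8 genes, neural progenitor and neuron markers came to 542 to 857 CPM in KO and 1703 to 1797 CPM in WT at D8. The 7 definitive endoderm and axial mesoderm genes came to 203 to 460 CPM in KO and 71.9 to 160 CPM in WT, with Noto at 0 in WT. The 10 visceral endoderm genes came to 64.4 to 126 CPM in KO and 23.5 to 25.7 CPM in WT, with Apoa4 at 0 in WT. The part of culture makeup in the differences of the members and targets was not tested. The count of 19 was 30 without KO D8 replicate 1, 11 without KO D8 replicate 3 and 7 without WT D8 replicate 1 or WT D8 replicate 2, and the count of 4 ran from 0 to 17.

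Genes whose levels were most like those of Amot were sought among 8220 genes with an average log2 CPM of at least 3 over the 18 embryo libraries. The 5 with the highest Pearson correlation of log2 CPM were Prlr (0.898), Srgn (0.898), Tfec (0.882), Xlr5a (0.880) and Nrk (0.877). These libraries share tissues, stages and preparation, so the values only describe likeness. Without the A libraries of E7.5, where Amot was lowest, the values over the other 16 were 0.729, 0.608, 0.673, 0.623 and 0.572. The likeness thus rests in part on those 2 libraries, where the prolactin receptor gene Prlr stood at 0.608 and 3.16 CPM, against 15.4 and 9.64 CPM in A at E7.0. In the cells, D8 and D0 form separate clusters of 5 libraries, so no correlation is given there.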

How the data were processed

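RNA was analysed in 18 embryo and 10 cell libraries of a series of 120 samples, and the genomic libraries were not used here. The labels' protocols name guanidine thiocyanate extraction and Nextera XT for embryos, and Trizol and NEBNext for cells. The deposited values are whole-number counts per gene. CASAVA 1.8, TopHat2 2.0.9, BWA and mm10 stand in the submitters' processing notes, with no role. The sources used here give neither counting tool nor annotation nor strand setting, so counts of overlapping genes cannot be told apart. Columns were matched to samples by name, and 6 embryo columns that matched none were not used. Each file held 23154 genes, and 27 names in the cell file had become dates.

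Genes kept by filterByExpr (at least 10 counts, 15 in total) entered the quasi-likelihood test of edgeR 4.0.16 (R 4.3.3) with TMM scaling, robust fits and Benjamini-Hochberg adjustment, 14403 genes in embryos and 14629 in cells. The groups of each file shared 1 fit with no block. A call is an adjusted p under 0.05, and an SE is the log2 fold change over the square root of F. Embryo scaling factors were 0.659 to 1.371 and those of cells 0.8868 to 1.159. Replicates differed beyond counting noise, by a chi-square per degree of freedom of 40.4 or more in embryos and 3.78 or more in cells. Floors of 3 counts cover counting error only. The test was also run on simulated counts, with the same spread set for all genes of a file. Nothing about these libraries is read from that run.

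The members, the pathway lists and the marker lists were chosen with earlier results of these data known. Named are the members and, for each list and contrast, at most 3 called genes of smallest p and 2 uncalled ones, with exceptions stated. Results of 1 eligible gene are not reported here, and list counts include it. Contrasts of members between stages of 1 region, and chromosomes 6, 11 and 14, were chosen after seeing the data. Alternatives were DESeq2 1.42.0, its size factors or total counts in edgeR, no filter, a replicate block and leaving out each library. Sequences came from RefSeq (GRCm38.p6).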

Additional observations from a re-analysis of the deposited data

Results flagged for a closer look

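Amot, P minus A, stood at -1.23 ± 0.35 at E7.0 and 2.13 ± 0.36 at E7.5 on the log2 scale. Every library of P lay below A at E7.0 and above A at E7.5, and the difference between the stages was 3.37. This difference was not tested and is a description, since Amot was chosen with its levels known. Amotl1, ExE minus the embryonic part, stood at 0.87 ± 0.39 at E6.5 and -1.24 ± 0.34 at E7.5, a difference of -2.11 that was not tested either. In cells, Tead3 was lower in every KO library than in WT at D8 and higher in every KO library at D0. The difference was -1.83 ± 0.41 and passed in the fit over all genes, but it is a description here, since Tead3 was chosen with its levels known.

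For 4 pathway genes outside the members, the difference between KO and WT cells in D8 minus D0 passed edgeR's test without a replicate block. It was -3.13 for Dchs1, -1.47 for Nuak2, 2.15 for F3 and 2.10 for Igfbp3. With the block the call of Nuak2 was lost. Groups held 2 or 3 libraries, so no search for outlying libraries within a group was made.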

How the results depend on the processing

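Directions of Amot, Tead4 and Tead1 described for ExE, P and AM at E7.5 held under every scaling tried. Counts of called pathway genes moved by over 1.5 times in these cases, whose cause was not tested. With DESeq2 the count was 1 for P minus A at E7.5, 1 for AM minus A and 1 for KO minus WT at D0, where edgeR called 0, and 10 for the difference between genotypes in D8 minus D0, where edgeR called 4. For ExE at E7.5 it was 4 with total counts and 6 without the filter, against 10. Without the filter it was 1 for P minus A at E7.5 and 1 for AM minus A. Leaving out 1 library at a time, counts ran from 0 to 1 for ExE at E6.5, from 3 to 12 at E7.0 and from 1 to 9 at E7.5, from 34 to 41 and from 21 to 23 for D8 minus D0 in KO and WT cells, from 7 to 30 for KO minus WT at D8 and from 0 to 17 for the difference between genotypes. Without ExE replicate 1 at E7.0 the log2 fold change of Vgll1 was 0, and without ExE replicate 2 it was 9.61.

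Total counts in place of TMM moved the median of all genes to 0.36 for ExE at E6.5, 0.14 at E7.0 and -0.33 at E7.5, -0.43 for P minus A at E7.5, 0.25 for D8 minus D0 in WT cells, -0.18 for KO minus WT at D8 and -0.25 for the difference between genotypes. The share of calls that were higher was then 63.2% against 41.3% with TMM at E6.5, 69.7% against 55.1% at E7.0, 44.5% against 62.9% at E7.5, 50% against 85.3% for P minus A at E7.5, 62.5% against 48.8% in WT cells, 37.7% against 60.3% for KO minus WT at D8 and 27% against 52.1% for the difference. For KO minus WT at D8 it was 49.7% with DESeq2 and 48.1% with its size factors.

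Same-numbered replicates share only a number in the labels. Correlations of their deviations from group means ran from -0.10 to 0.56 in embryos, with 0.36 to 0.56 among A, AM and P at E7.5, and from -0.04 to 0.17 in cells. With the replicate block, P minus A at E7.5 had 1 called pathway gene, ExE had 6, 11 and 13 over the stages, KO minus WT at D8 had 15 and the difference between genotypes 3. The calls of Stk38l and Vgll4 at D8 and of Nuak2 in the difference between genotypes were lost. Low counts limit Tead3 in embryos and Vgll1, among others. Tead4 had 5 and 11 counts in A at E7.0 and 12 and 5 in A at E7.5. Dchs1 had 4 and 6 counts in WT cells and 7, 16 and 16 in KO cells at D0.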
